A study of Mus musculus with 2 samples.

Results

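The data described here concern 9 genes of the TEAD transcription factors and the proteins that bind them: Tead1, Tead2, Tead3, Tead4, Yap1, Wwtr1, Vgll2, Vgll3 and Vgll4. They were taken by name from the 21938 protein-coding genes of the GENCODE M21 mouse annotation. For each gene, DNase I hypersensitive peaks and footprints were collected inside the gene, within 50 kb on either side, and within 1 kb of every annotated transcript start. These windows held 144 of 97499 peaks in replicate 1 and 91 of 61664 peaks in replicate 2. DNase-seq maps open chromatin: the enzyme DNase I cuts accessible DNA, and a peak is a stretch with many cuts. A footprint is a short stretch that is spared from cutting, and most but not all footprints here lay inside a called peak. The tissue was whole gastrocnemius, a fast calf muscle, of male B6CASTF1/J mice aged 25 days. There was 1 group of 2 libraries, each from its own biosample (Male 06 for replicate 1, Male 05 for replicate 2), although the labels give both the same donor identifier. There was no treated or mutant group, so each library is compared with the other and each gene with all genes. With 2 libraries no test was made, and an SD describes the spread between these libraries alone.

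TEAD proteins bind DNA but activate genes poorly by themselves, and they depend on partner proteins that bind to them without touching DNA. The best known partners are YAP and TAZ, which the kinases of the Hippo pathway keep out of the nucleus by phosphorylation. Vestigial-like proteins compete for the same partner surface on TEAD. In striated muscle, TEAD proteins recognise the MCAT element, found at promoters of contractile protein genes.

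All 9 genes had a promoter peak, a peak within 1 kb of an annotated transcript start, in replicate 1, where 66.5% of all protein-coding genes did. All 9 also had one in replicate 2, against 64.2% of all genes, and thus in both libraries, against 63.0% of all genes. Among the 2 libraries, peaks were strongest at Tead1 and Yap1 and weakest at Tead2 and Vgll2. Signal is the value that the authors deposited for each peak. No source used here states its unit. It is read as a tag density because it was a whole multiple of 0.00591 in replicate 1 and of 0.00854 in replicate 2. All signals lay within 0.1 of a step of a whole multiple, in both deposited peak lists of each library. Tag numbers, Poisson intervals and the depth of a library, as given here, all rest on reading 1 step as 1 tag. In bulk tissue, a weak peak in every cell and a strong peak in few cells cannot be told apart.

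The sequences below are from the C57BL/6J reference of the mm10 (GRCm38) build, and the other parental allele of these hybrid mice may differ. They are shown because they carry the TEAD motif in or just beside peaks found in both libraries. The motif is CATTCC, the core of the MCAT element, searched on both strands in the 150 bp around the centre of each replicate 1 peak. The lines give the 8 sites, of 15 found, that also have an A before the motif (ACATTCC). Each is 30 bases long, runs 5′ to 3′ on the strand of the motif, and has the motif in capitals. The second Wwtr1 promoter site lies just outside the called replicate 1 peak, and the Wwtr1 intron site lies nearer to a start of Tm4sf4 than to one of Wwtr1.
upstream of Tead1 (chr7:112656252-112656281, minus strand): gactgataagcaCATTCCattgagaccaga
Tead4 intron (chr6:128236834-128236863, minus strand): ttctgggcccgaCATTCCtcccagacacat
Yap1 promoter site (chr9:8004720-8004749, plus strand): tgcgcgtcgctaCATTCCtgcagactcccg
Wwtr1 promoter site (chr3:57576217-57576246, minus strand): cgccccgtgccaCATTCCgggtgctgggcg
Wwtr1 second promoter site (chr3:57576570-57576599, minus strand): gcgacccagggaCATTCCaatcctcccact
Wwtr1 intron (chr3:57471204-57471233, minus strand): ccctttgaagtaCATTCCagccgaggcagg
Vgll3 promoter site (chr16:65815114-65815143, plus strand): cccgcctccccaCATTCCggctaccctgcc
Vgll4 intron (chr6:114889161-114889190, minus strand): cccgcgtcctcaCATTCCgcgcatgccaat

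The Yap1 promoter was shown as the strongest with a RefSeq promoter sequence, which were matched for 7 of the 9 genes (10 sequences, GRCm38.p6). The stretch runs from 250 bases before the start to 30 bases after it, and capitals mark the TEAD motif, here on the opposite strand, and the GC box GGGCGG bound by SP and KLF factors.
Yap1 promoter (chr9:8004567-8004846, minus strand): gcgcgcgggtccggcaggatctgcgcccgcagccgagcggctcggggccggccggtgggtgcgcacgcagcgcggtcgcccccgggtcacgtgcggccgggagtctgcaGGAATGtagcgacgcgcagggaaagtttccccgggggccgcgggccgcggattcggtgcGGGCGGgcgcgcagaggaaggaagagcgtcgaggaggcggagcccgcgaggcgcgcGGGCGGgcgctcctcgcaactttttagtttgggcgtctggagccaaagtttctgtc
Of the 7 genes with a sequence, 5 (71.4%) held CATTCC in at least 1 promoter of 300 bases: Tead3, Yap1, Wwtr1, Vgll3 and Vgll4. Among all 27025 genes with such a sequence, 16.6% did. That set is larger than the 21938 protein-coding genes used elsewhere. The 7 genes had 10 sequences, against 32851 for the 27025, and a gene with more sequences has more places for a match. The sequence around 1 Tead3 start held 3 matches. Single promoters held the motif in 14.7% of 32851 cases and the GC box in 35.7%. Each of the 10 sequences of the 7 genes held the GC box, and their GC content ran from 61.3% to 75.3%.

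Among the TEAD factors, Tead1, the TEAD gene best known from cardiac and skeletal muscle, had the strongest promoter. Its peak over the 5′ end (chr7:112679161-112679400) had a signal of 5.07 in replicate 1 and 6.61 in replicate 2 (5.84 ± 1.09, SD, n = 2). The 95% Poisson intervals were 4.74 to 5.42 in replicate 1 and 6.15 to 7.09 in replicate 2, which cover counting error only, as do all intervals here. The signal was higher in replicate 2, and the counting intervals did not overlap. The peak lay at the 64.7th percentile of all genes with a promoter peak in replicate 1 and at the 87.1st percentile in replicate 2. The replicate 1 peak held 4 footprints found in both libraries, and the replicate 2 peak held 3. Of the 13 annotated Tead1 starts, 5 had a peak within 1 kb in replicate 1 and 4 in replicate 2, and all 4 lay at the 5′ end. The fifth was an internal protein-coding start 62.7 kb into the gene, where a peak of 1.44 was called in replicate 1 and none in replicate 2. No peak lay within 1 kb of the 6 annotated starts clustered 80.1 to 80.2 kb into the gene.

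Tead3, a TEAD gene prominent in placenta, came second among the TEAD factors. Its 5′ peak (chr17:28350741-28351000) had a signal of 2.51 in replicate 1 and 2.71 in replicate 2 (2.61 ± 0.138, SD, n = 2). The libraries thus gave nearly equal values, at the 37.6th percentile in replicate 1 and the 39.6th in replicate 2. Tead4, a TEAD gene linked to myoblast differentiation, had peaks at 2 separate starts, both protein-coding, and the libraries differed in which was stronger. At the internal start, 25.2 kb into the gene (chr6:128275541-128275820), the signal was 2.37 in replicate 1 and 1.64 in replicate 2. At the 5′ end (chr6:128300461-128300900), it was 1.68 in replicate 1 and 2.02 in replicate 2. The counting intervals of the internal and 5′ peaks overlapped in replicate 2, at 1.42 to 1.89 and 1.77 to 2.29. In replicate 1 they did not, at 2.14 to 2.61 and 1.49 to 1.89. Taking the stronger peak of each library gave 2.19 ± 0.247 (SD, n = 2). Tead2, a TEAD gene known from early embryos, had a weak promoter, with a strongest signal of 0.816 in replicate 1 and 1.17 in replicate 2 (0.993 ± 0.251, SD, n = 2). These were different peaks. The one over the 5′ end had 0.621 in replicate 1 and 1.17 in replicate 2, and the one 0.859 kb into the gene had 0.816 in replicate 1 and 0.948 in replicate 2. Both lay below the 17th percentile of all genes with a promoter peak. On the shorter and stricter deposited peak list, 8 of the 9 genes had a promoter peak in both libraries, and Tead2 was the exception.

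Of the coactivators, Yap1, which encodes YAP, had the second strongest promoter of the 9 genes. Its peak (chr9:8004581-8004820) had a signal of 5.07 in replicate 1, the same 857 tags as Tead1, and 4.87 in replicate 2 (4.97 ± 0.140, SD, n = 2). The libraries overlapped within counting error, with intervals of 4.74 to 5.42 in replicate 1 and 4.48 to 5.29 in replicate 2. The peak held 5 shared footprints in replicate 1 and 4 in replicate 2. It lay at the 64.7th percentile in replicate 1 and the 70.2nd in replicate 2. Inside the first 1 kb, a second Yap1 peak (chr9:8003561-8004280) had a signal of 1.07 in replicate 1 and 1.41 in replicate 2. Wwtr1, which encodes TAZ, had a signal of 4.61 in replicate 1 and 3.34 in replicate 2 (3.98 ± 0.900, SD, n = 2) at its 5′ end (chr3:57575741-57576040). Here replicate 1 was higher, and the counting intervals, 4.30 to 4.95 in replicate 1 and 3.02 to 3.69 in replicate 2, did not overlap. The Wwtr1 peak stood at the 60.5th percentile in replicate 1 and the 48.7th in replicate 2, so it lay above the median promoter in replicate 1 alone. Wwtr1 had 3 further promoter peaks in each library. Those upstream of the start had 1.91 in replicate 1 and 2.67 in replicate 2 (chr3:57576121-57576440), and 1.16 in replicate 1 and 1.61 in replicate 2 (chr3:57576461-57576580). Unlike the main peak, both were higher in replicate 2, and each had an ACATTCC site printed above within the 150 bp around its centre.

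Of the vestigial-like cofactors, Vgll4, whose protein opposes YAP at TEAD, had the strongest promoter, but not at its 5′ end. The strongest peak (chr6:114875061-114875260) lay at the start of 2 annotated processed transcripts about 94.9 kb into the gene, with a signal of 4.57 in replicate 1 and 4.50 in replicate 2 (4.54 ± 0.0489, SD, n = 2). The counting intervals of the libraries overlapped. At the protein-coding start 48.2 kb into the gene (chr6:114921781-114922020) the signal was 2.87 in replicate 1 and 2.19 in replicate 2. Within 1 kb of the 5′ end it was 0.982 in replicate 1 and 1.53 in replicate 2. With the 5′ end alone the mean was 1.26, and with protein-coding transcripts alone it was 2.53, so the rank of Vgll4 rests on a start that is not annotated as coding. Vgll3, another vestigial-like TEAD cofactor, had a signal of 2.04 in replicate 1 and 2.00 in replicate 2 (2.02 ± 0.0291, SD, n = 2). The counting intervals again overlapped. The Vgll3 peak (chr16:65814921-65815300) stood at the 31.9th percentile in replicate 1 and the 28.9th in replicate 2. It held 4 shared footprints in replicate 1, and the narrower replicate 2 peak held 0. A weaker Vgll3 peak lay near the start of a processed transcript 13.4 kb into the gene, at 1.17 in replicate 1 and 1.01 in replicate 2. Vgll2, a vestigial-like gene enriched in skeletal muscle, had the lowest mean, with 0.828 in replicate 1 and 1.06 in replicate 2 (0.944 ± 0.164, SD, n = 2). It stood near the 14th percentile in both libraries.

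**Figure D1:**
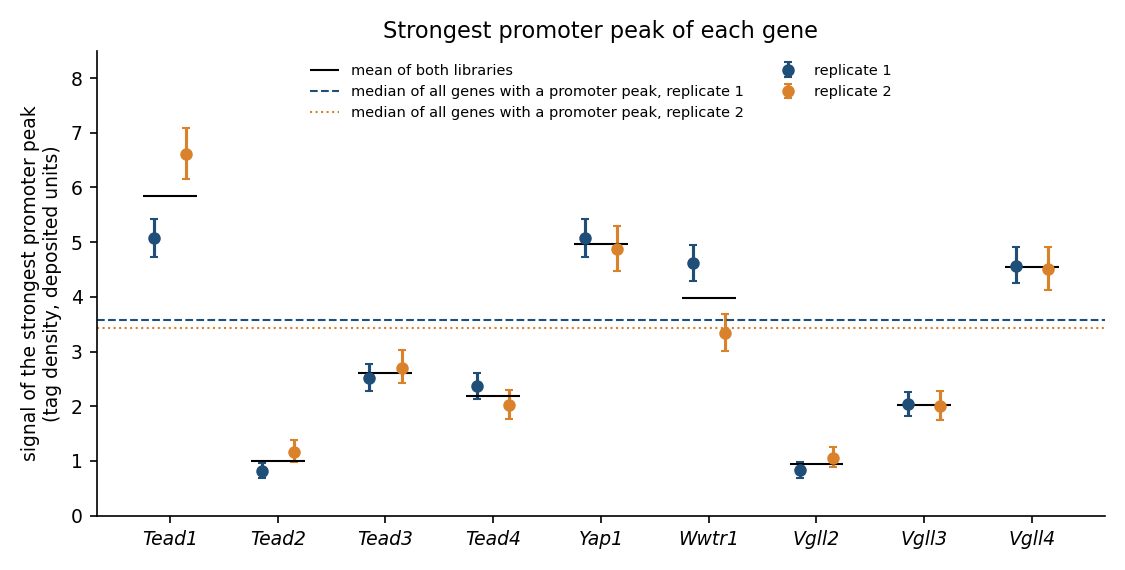
Signal of the strongest promoter peak of each gene (y axis, deposited tag density) in replicate 1 (left) and replicate 2 (right), with exact 95% Poisson intervals. Black bars are means of both libraries, and dashed and dotted lines are the medians of all genes with a promoter peak, 3.57 in replicate 1 and 3.43 in replicate 2; Tead1, Yap1 and Vgll4 lie above both lines in both libraries, and Wwtr1 in replicate 1 only.

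In order of mean signal the genes ran Tead1, Yap1, Vgll4, Wwtr1, Tead3, Tead4, Vgll3, Tead2 and Vgll2. The ranges of the libraries overlapped or touched between Tead1 and Yap1, Vgll4 and Wwtr1, Tead4 and Vgll3, and Tead2 and Vgll2. They did not overlap between Yap1 and Vgll4, Wwtr1 and Tead3, Tead3 and Tead4, or Vgll3 and Tead2. The median of the 9 genes was 2.51 in replicate 1 and 2.71 in replicate 2, against 3.57 in replicate 1 and 3.43 in replicate 2 over all genes with a promoter peak. Their median percentile was 37.6 in replicate 1 and 39.6 in replicate 2, and 4 genes in replicate 1 and 3 in replicate 2 stood above the 50th. So the 9 genes were widely spread over the range of promoter strengths.

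Tead1 had the most peaks, in the longest window (327 kb, against 106 to 220 kb for the others). Its window held 37 peaks in replicate 1 and 22 in replicate 2, of which 22 in replicate 1 overlapped a peak of replicate 2. Vgll4 came next with 28 peaks in replicate 1 and 15 in replicate 2, and 16 of those in replicate 1 overlapped. In replicate 1 the other windows held 17 peaks at Wwtr1, 16 at Tead4, 14 at Tead3, 12 at Yap1, 11 at Tead2, 5 at Vgll3 and 4 at Vgll2. In replicate 2 they held 10 at Wwtr1, 14 at Tead4, 9 at Tead3, 9 at Yap1, 6 at Tead2, 4 at Vgll3 and 2 at Vgll2. Tead4 was the gene whose counts differed least between the libraries among those with over 10 peaks. Per 100 kb of window Tead1 was not first. In replicate 1 there were 13.4 peaks at Vgll4, 11.8 at Tead3 and 11.3 at Tead1, and in replicate 2 there were 7.93 at Tead4, 7.55 at Tead3, 7.16 at Vgll4 and 6.72 at Tead1. The median gene had 9.06 peaks per 100 kb in replicate 1 and 5.21 in replicate 2, against 5.94 in replicate 1 and 3.77 in replicate 2 over all protein-coding genes. Below those values in both libraries lay Vgll2 (3.77 in replicate 1, 1.89 in replicate 2) and Vgll3 (3.31 in replicate 1, 2.65 in replicate 2).

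**Figure D2:**
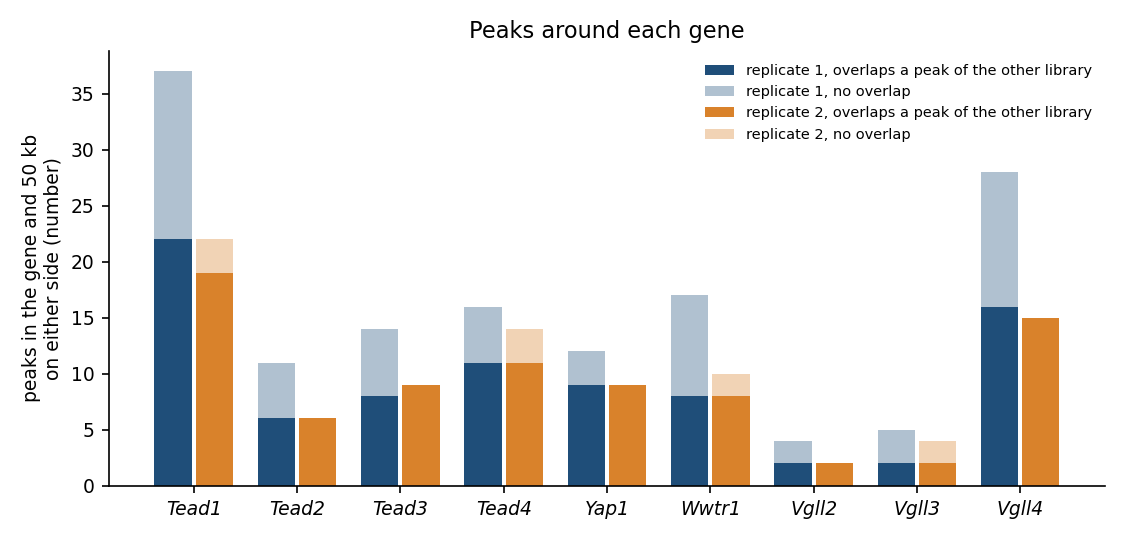
Number of peaks in each gene and 50 kb on either side (y axis) in replicate 1 (left bar) and replicate 2 (right bar), with peaks that overlap a peak of the other library in full colour. Tead1 has the tallest bars, with 37 peaks in replicate 1 and 22 in replicate 2.

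In total 84 of the 144 peaks in replicate 1 (58.3%) overlapped a peak of replicate 2, against 51.0% of all peaks. In replicate 2 it was 81 of 91 (89.0%), against 79.7%. Peaks without a counterpart were weak: 60 in replicate 1 had a median signal of 0.597, and 10 in replicate 2 a median of 0.526. Shared peaks had a median of 1.17 in replicate 1 and 1.23 in replicate 2. Over all peaks of each library, shared or not, the median was 0.674 in replicate 1 and 0.974 in replicate 2. Of the 60 peaks, 8 held a position that replicate 2 listed below a q-value of 0.05. Of the 10 peaks, 2 did so in replicate 1. Neither count was made for all unshared peaks of the libraries. Replicate 1 was the deeper library by this reading, with 1 tag worth 0.00591 in signal in replicate 1 and 0.00854 in replicate 2, and the part of depth in the number of unshared peaks was not tested.

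Of the window peaks, 31 in replicate 1 and 29 in replicate 2 lay at a start of the gene itself. A further 54 in replicate 1 and 23 in replicate 2 lay in its introns, 22 in replicate 1 and 17 in replicate 2 between genes, and 13 in replicate 1 and 7 in replicate 2 at a start of another protein-coding gene. The nearest protein-coding start belonged to the gene itself for 98 peaks in replicate 1 and 67 in replicate 2. In some windows the strongest peak was a neighbour's. In the Tead3 window it was the Rpl10a promoter, at 9.46 in replicate 1 and 8.32 in replicate 2. In the Yap1 window it was that of Cfap300, at 5.97 in replicate 1 and 6.06 in replicate 2. In the Tead4 window it was a peak at a noncoding start whose nearest protein-coding gene was Tspan9, at 11.2 in replicate 1 and 7.85 in replicate 2.

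The strongest shared Tead1 peak over 1 kb from any start lay in an intron 84.4 kb from the 5′ end. Its signal was 2.74 in replicate 1 and 1.71 in replicate 2, and 1 of its 6 replicate 1 footprints was shared. The sequence is printed because Tead1 had the most shared peaks, and capitals mark the 29 bases covered by the shared footprint in either library.
Tead1 intron peak (chr7:112763601-112763880, plus strand): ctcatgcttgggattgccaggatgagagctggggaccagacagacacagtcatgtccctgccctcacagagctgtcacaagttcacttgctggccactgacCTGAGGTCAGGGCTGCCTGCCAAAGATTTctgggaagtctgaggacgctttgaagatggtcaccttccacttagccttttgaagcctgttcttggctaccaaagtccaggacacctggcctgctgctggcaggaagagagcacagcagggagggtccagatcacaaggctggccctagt
Of the 14 motifs searched, this peak held any E-box CANNTG, at 2 places, and the NFI-type site TTGGCA, which lies in the shared footprint. It held neither CATTCC nor the myogenic E-box CAGCTG. Other shared Tead1 intron peaks had signals of 1.69 in replicate 1 and 1.28 in replicate 2 at 205 kb, 1.36 in replicate 1 and 1.70 in replicate 2 at 187 kb, and 1.24 in replicate 1 and 1.16 in replicate 2 at 147 kb. Replicate 1 alone had further intron peaks, the strongest 1.46 at 135 kb, and replicate 2 alone had 0.590 at 31.5 kb and 0.572 at 41.6 kb.

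**Figure D3:**
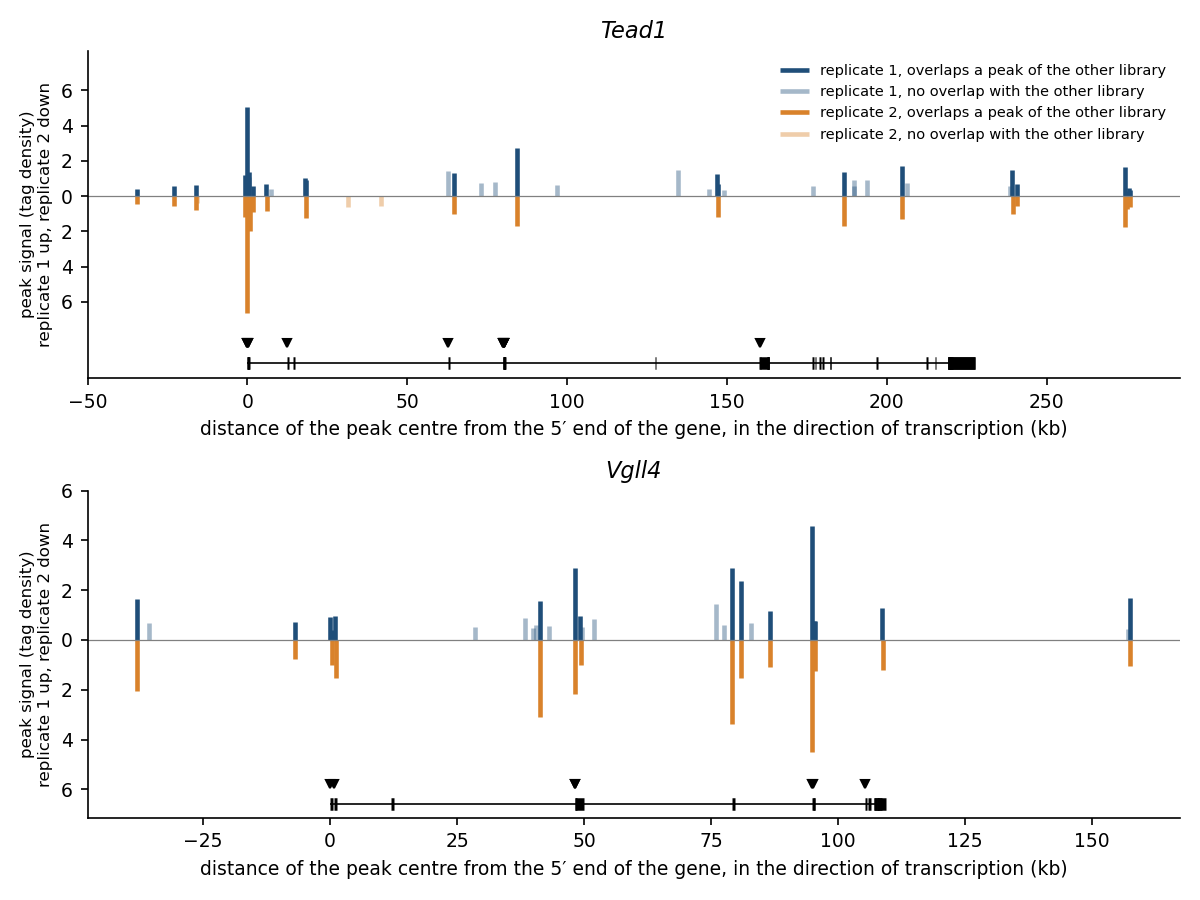
Peak signal (y axis, tag density; replicate 1 up, replicate 2 down) along Tead1 and Vgll4 by distance from the 5′ end in kb; pale lines are peaks with no overlap in the other library. Boxes are exons and triangles annotated starts; the tallest Tead1 peak is at its 5′ end, and the tallest Vgll4 peak is 94.8 kb into the gene.

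In Vgll4 the strongest shared distal peak (chr6:114890841-114891020, intron) had a signal of 2.89 in replicate 1 and 3.37 in replicate 2 and held 3 shared footprints. Another (chr6:114928541-114928740, intron) had 1.59 in replicate 1 and 3.10 in replicate 2, with 6 shared footprints in replicate 1 and 4 in replicate 2. A weaker one (chr6:114889081-114889320, intron) had 2.38 in replicate 1 and 1.51 in replicate 2. It is printed because it holds the only shared footprint around the 9 genes with a TEAD motif, and capitals mark the motif.
Vgll4 intron peak (chr6:114889081-114889320, minus strand): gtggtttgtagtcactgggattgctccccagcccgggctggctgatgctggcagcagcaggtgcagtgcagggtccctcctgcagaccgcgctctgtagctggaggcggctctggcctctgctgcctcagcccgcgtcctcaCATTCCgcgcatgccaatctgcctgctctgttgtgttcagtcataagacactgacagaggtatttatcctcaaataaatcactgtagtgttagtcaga
The replicate 1 footprint (chr6:114889168-114889181) covered the whole motif. The replicate 2 footprint (chr6:114889179-114889185) overlapped that footprint but began just beside the motif.

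For the other genes, the strongest shared Wwtr1 distal peak lay in an intron (chr3:57506081-57506280), at 1.89 in replicate 1 and 1.12 in replicate 2. For Tead4 the strongest by the mean of both libraries lay upstream, at -7.7 kb from the 5′ end (chr6:128308441-128308620), at 1.04 in replicate 1 and 1.65 in replicate 2. The Vgll2 peak lay over an exon (chr10:52027404-52027680), at 0.556 in replicate 1 and 1.10 in replicate 2. The Tead2 one had 3.13 in replicate 1 and 1.69 in replicate 2 and lay nearest to a start of Pth2. The Tead3 one had 2.45 in replicate 1 and 3.38 in replicate 2 and lay nearest to Fance, and the Yap1 one had 1.05 in replicate 1 and 1.03 in replicate 2 and lay nearest to Birc3. Vgll3 had no shared distal peak. In replicate 1 alone a Tead4 intron peak was stronger, at 1.62 in replicate 1 and 0.820 in replicate 2 (chr6:128253181-128253400), close to 2-fold apart. The strongest distal peaks of Tead1, Wwtr1, Vgll2 and Vgll4 thus lay inside the genes.

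In 79 pairs of peaks around the genes, each the best-overlapping partner of the other, log2 of the replicate 1 signal divided by the replicate 2 signal, centred on all pairs, had a median of 0.00, an SD of 0.49 and a range of -1.28 to 0.99. Over all pairs the SD was 0.52. Of these, 2 (2.53%) passed 2-fold, against 4.64% of 47291 pairs in either direction. Both were higher in replicate 2, the direction of 2.30% of all pairs. The first was a Vgll4 promoter peak at 0.408 in replicate 1 and 0.991 in replicate 2. The other was at the Rassf10 promoter in the Tead1 window, at 0.319 in replicate 1 and 0.726 in replicate 2. Such pairs were thus weak peaks.

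**Figure D4:**
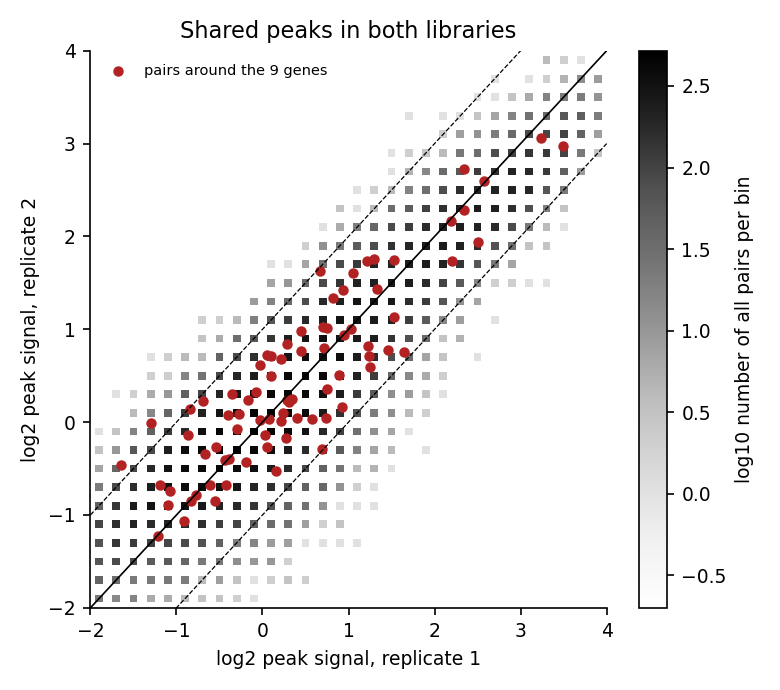
Log2 peak signal in replicate 1 (x axis) and replicate 2 (y axis); red points are the 79 pairs around the 9 genes, grey squares all 47291 pairs by number per bin, the solid line is equality and dashed lines are 2-fold. Red points follow the grey cloud, and 2 lie past a dashed line.

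Around the centres of the replicate 1 peaks, the TEAD motif lay in 15 of the 84 shared peaks (17.9%, exact Clopper-Pearson 95% interval 10.4 to 27.7), against 7.89% of 49760 shared peaks. Around the centres of the replicate 2 peaks, a count added after the data were seen, it lay in 10 of 81 (12.3%, interval 6.08 to 21.5), against 7.58% of 49123, and this interval contains the value of all peaks. In the 150 bp window the result thus depends on which library sets the centre. The Tead1 5′ peak, for example, held the motif around its replicate 1 centre and not around its replicate 2 centre. Over whole peaks the interval lay above the value of all shared peaks in both libraries. Whole replicate 1 peaks held the motif in 20 of 84 cases (23.81%, interval 15.19 to 34.35), against 11.965%. Whole replicate 2 peaks held it in 17 of 81 (20.99%, interval 12.73 to 31.46), against 11.31%. Wider peaks have more places for a match, and peak width was not matched in these whole-peak counts. The counts that follow use replicate 1 centres unless the other library is named. The strongest peaks with the motif were the Tead1 and Yap1 5′ peaks, and the others had replicate 1 signals of 0.408 to 2.38. Counted by gene, 7 of the 9 contributed: 4 from Vgll4, 3 each from Tead1 and Wwtr1, 2 from Tead4 and 1 each from Tead3, Yap1 and Vgll3. None was from Tead2 or Vgll2, which had 6 and 2 shared peaks. Promoter peaks, those of neighbouring genes included, held it in 7 of 35 cases (interval 8.44 to 36.9%), against 5.62% of all shared promoter peaks. With replicate 2 centres it was 5 of 34 (interval 4.95 to 31.1%), against 5.29%, inside the interval. Distal peaks held it in 8 of 45 cases (17.8%), against 9.69% of all shared distal peaks, which lay inside the interval of the 45 (upper limit 32.1%). ACATTCC, which is part of the CATTCC count, lay in 8 peaks (9.52%, interval 4.20 to 17.9), against 2.00%, and with replicate 2 centres in 7 of 81 (8.64%, interval 3.55 to 17.0), against 1.90%. Peaks of 1 gene share a neighbourhood and are not independent samples of the genome.

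For every other motif searched except the general E-box, the value over all shared peaks lay inside the interval of the 84. The general E-box lay in 41.7% of the 84 peaks (interval 31.0 to 52.9), against 53.4% of all, and with replicate 2 centres in 43.2% (interval 32.2 to 54.7), against 53.2%, inside the interval. The myogenic E-box CAGCTG, bound by MyoD and its relatives, lay in 9 peaks (10.7%, interval 5.02 to 19.4), against 16.7%. The MEF2 motif lay in none of the 84 (upper limit 4.30%), against 0.928%, so its absence is within what this number of peaks allows. The GC box lay in 27.4%, against 27.1%, and the CTCF motif in 10.7%, against 7.76%.

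**Figure D5:**
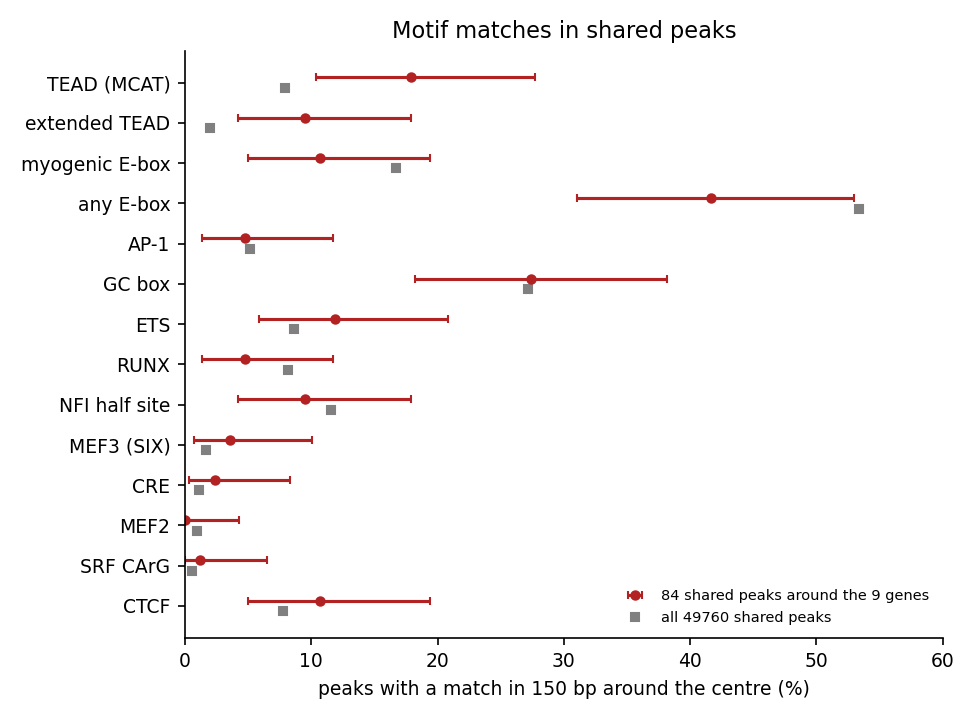
Share of peaks (x axis, %) with a match to each of 14 motifs in 150 bp around the replicate 1 centre; red points are the 84 shared peaks around the 9 genes with exact 95% intervals, grey squares all 49760 shared peaks. For the TEAD motif the interval, 10.4 to 27.7%, lies above the value of all peaks, 7.89%, which does not hold with replicate 2 centres (6.08 to 21.5%, against 7.58%).

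The windows held 375 footprints in replicate 1, of which 344 (91.7%) lay in a peak of that library. In replicate 2 they held 269, of which 216 (80.3%) did. The share in a peak was not counted over all footprints of the libraries. Whether in a peak or not, 122 in replicate 1 (32.5%) and 124 in replicate 2 (46.1%) overlapped a footprint of the other library. Over all footprints it was 36.0% in replicate 1 and 52.2% in replicate 2. Of the 122, 1 held CATTCC (0.820%, interval 0.0208 to 4.48), against 0.546% of 87692. The GC box lay in 23 (18.9%, interval 12.3 to 26.9), against 13.6%, and the CTCF motif in 9 (7.38%), against 4.24%. Of the 15 TEAD motif sites in shared peaks, 4 touched a footprint in replicate 1 and 3 in replicate 2, and none in both. The other 8 touched none. The same counts were not made for all shared peaks, so they describe these 15 sites only. By gene, shared replicate 1 footprints numbered 25 at Vgll4, 24 at Tead3, 19 at Tead1 and 1 at Vgll2.

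Genes of the Hippo pathway mostly had promoter peaks. Of 24 listed, 21 had one in both libraries, where 63.0% of all genes did, 23 in replicate 1 and 21 in replicate 2. All 7 genes of the kinase core did: the highest mean signals were at Mob1b (9.85 ± 0.619, SD, n = 2) and Lats2 (6.91 ± 1.04) and the lowest at Lats1 (3.53 ± 0.300). LATS kinases phosphorylate YAP and TAZ, and MOB proteins activate them. Of 9 upstream and junction genes 8 did, from Wwc2 (6.89 ± 0.530) and Frmd6 (5.84 ± 0.490) to Amotl1 (1.53 ± 0.191), and Wwc1 had a peak of 0.367 in replicate 1 only. Of 7 TEAD and YAP target genes 6 did, from Ajuba (3.92 ± 0.498) and Ccn1 (3.68 ± 0.497) to Axl (2.60 ± 0.359), and Ankrd1 had a peak of 0.526 in replicate 1 only. Vgll1 had no promoter peak in either library. The median percentile of the listed genes with a peak was 54.6 in replicate 1 and 58.4 in replicate 2.

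Likeness was measured as the Euclidean distance to Tead1 over 6 percentiles among all protein-coding genes, for promoter signal and for peaks and footprints in the window in each library. The closest genes were Sema3b (distance 3.89), Ttll5 (5.32) and Tas1r1 (5.48).

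Promoter peaks at cell type markers were set beside the labelled tissue. Of 23 marker genes, 18 had a promoter peak in both libraries, where 63.0% of all protein-coding genes did. Among them were 4 of 5 fast-fibre genes (Ckm, Actn3, Mylpf and Acta1) and all 3 muscle lineage genes. The fast-fibre gene Myh4 had a peak of 0.946 in replicate 1 and none in replicate 2. The muscle lineage genes had weak promoters, at a median percentile of 17.6 in replicate 1 and 14.8 in replicate 2. The 3 Schwann cell genes had a higher median, 69.8 in replicate 1 and 88.0 in replicate 2. Among them Pmp22 stood at 43.5 in replicate 1 and 48.7 in replicate 2. The fast-fibre genes with a peak had a median of 55.0 in replicate 1 and 56.8 in replicate 2. The leukocyte genes Ptprc and Cd68 and the hepatocyte gene Alb had none in either library. Peaks in both libraries also lay at 3 of 3 endothelial, 2 of 2 fibro-adipogenic, 2 of 3 pericyte and smooth muscle and 3 of 3 Schwann cell genes. Acta2 had a peak in replicate 2 only, and Pecam1 stood at the 9.68th percentile in replicate 1 and the 7.96th in replicate 2. Such counts in short lists do not show which cell types the libraries hold. The part of other cell types in the values above was not tested.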

How the data were processed

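DNase-seq was made on gastrocnemius of male B6CASTF1/J mice aged 25 days, in 2 libraries treated as replicates of 1 group. Per the labels, the authors deposited peaks and footprints on mm10, with aligner and callers not given in the sources used here. No source states the unit or scaling of the deposited peak signal; it was read as a tag density since values were whole multiples of 1 step per library in both deposited peak lists. The authors deposited 2 peak lists per library, 97499 and 61099 peaks for replicate 1 and 61664 and 36573 for replicate 2, and the longer was used. They deposited q-values per position, listed only below 0.05. Deposited footprints carry a constant 0.01 as score, so their positions alone were used.

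Starts and gene models came from GENCODE M21, promoter sequences from RefSeq (GRCm38.p6). A shared peak or footprint overlaps one of the other library by at least 1 bp. Python 3.11.15, pandas 2.3.3 and scipy 1.17.1 were used; intervals are exact and cover counting error only. Scripts were tested on simulated data. The members and lists were chosen with earlier results of these data known. Named were all members, the highest 2 and lowest 1 pathway genes of each subgroup, those without a peak, and the 3 genes most like Tead1.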

Additional observations from a re-analysis of the deposited data

How the results depend on the processing

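The mean of the members' median percentiles in the 2 libraries was 38.6. It was 30.9 with the 5′ end of each gene alone, 36.8 with starts of protein-coding transcripts alone, 42.0 on the shorter peak list and 30.3 with the stronger 50% of the peaks, and ranged from 37.6 to 39.6 with either library left out. Shared peaks numbered 84, but 51 in gene bodies alone and 53 on the shorter list. Shared footprints numbered 122, but 208 within 100 kb, 51 in gene bodies alone and 75 where the nearest protein-coding start was the member's. The share of peaks with a TEAD motif was 17.9%, and 9.52% with ACATTCC. With the whole peak it was 23.8%, and with peaks nearest the member's start 22.0%. The mean promoter signal of Tead4 was 1.85 with the 5′ end alone. With replicate 2 centres, an alternative chosen after seeing the data, the TEAD motif share was 12.3% (interval 6.08 to 21.5). That interval contains the 7.58% of all shared peaks. With whole replicate 2 peaks the share was 20.99% (interval 12.73 to 31.46), above the 11.31% of all shared peaks, with peak width not matched. The other counts of shared peaks ranged from 57 to 122 and those of footprints from 92 to 97, and Hippo genes from 18 to 21, all within 1.5 times the count reported. The cause of these moves was not tested, beyond the smaller or larger regions and lists counted. No paired analysis was possible because there is 1 group. The median peak held 114 tags in either library, and the part of depth in the calling of weak peaks was not tested.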
